A study of Mus musculus with 2 samples.

Results

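Wnt pathway genes were read on an expression array of E15.5 mouse lung, the embryonic day at which the airways are still branching. They comprised 45 listed genes, namely Wnt and R-spondin ligands, their receptors, the cytoplasmic and nuclear transducers, the inhibitors and the target genes. Every probe set that the platform annotation assigned to exactly 1 of these genes was a member, which gave 98 probe sets for 44 genes, of 34945 single-gene probe sets for 18193 genes in all. No probe set naming Tcf7 alone was used here. The rule for the list was function in the pathway and used no signal from these arrays, but the list was drawn up with earlier results of these data known.

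The first group was whole lung of TAZ-deficient embryos and the second was whole lung of their wild type littermates, both at E15.5. TAZ, the product of Wwtr1, is a coactivator of transcription that the Hippo kinases hold in the cytoplasm and that works through TEAD factors. For each group 4 total RNA samples were mixed into 1 pool and hybridised to 1 Affymetrix mouse genome array, which reads each sample in a single colour. How the deficiency was made, the strain and the allele behind it were not given in the labels. With 1 array per group there was no spread between replicates, so no SD, p-value or test could be given, and the number of arrays limits every value below. All differences are descriptions of these 2 pools. In pooled whole lung, fewer cells of a type and less RNA per cell cannot be told apart.

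Wnt proteins are secreted, lipid-modified ligands that bind Frizzled receptors together with Lrp5 or Lrp6. In the canonical branch this stops a destruction complex built on Axin from degrading beta-catenin, which then enters the nucleus and activates genes through TCF and LEF factors. R-spondins strengthen the signal by keeping the ubiquitin ligases Rnf43 and Znrf3 from removing Frizzled from the cell surface. In the fetal lung, mesenchymal Wnt2 and Wnt2b specify the lung field, epithelial Wnt7b supports growth of mesenchyme and vascular smooth muscle, and Wnt5a shapes the branching of the distal airways. In other settings cytoplasmic TAZ is known to bind Dishevelled and to associate with the beta-catenin destruction complex.

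The windows around the start sites of Sp5, Axin2 and Wnt11 are shown here because Sp5 and Axin2 are textbook target genes of beta-catenin whose signals differed in size of ratio, and Wnt11 is a ligand of the set with a match. Each is the RefSeq window of 300 bases on GRCm38.p6, running from 250 bases before to 50 bases after a start site, 5′ to 3′ on the gene's strand. Capitals mark matches to the TCF/LEF core, searched on both strands as CTTTG followed by AA, AT, TA or TT, and to the TEAD core, searched on both strands as GGAATG. The Sp5 window lies at chr2:70474673-70474972 on the plus strand, the Axin2 window at chr11:108920099-108920398 on the plus strand and the Wnt11 window at chr7:98834862-98835161 on the plus strand.
Sp5: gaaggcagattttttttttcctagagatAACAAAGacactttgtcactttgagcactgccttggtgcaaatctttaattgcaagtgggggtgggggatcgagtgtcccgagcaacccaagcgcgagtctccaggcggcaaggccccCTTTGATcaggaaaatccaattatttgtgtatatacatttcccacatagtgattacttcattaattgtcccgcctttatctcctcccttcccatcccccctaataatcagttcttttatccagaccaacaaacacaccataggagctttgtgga
Axin2: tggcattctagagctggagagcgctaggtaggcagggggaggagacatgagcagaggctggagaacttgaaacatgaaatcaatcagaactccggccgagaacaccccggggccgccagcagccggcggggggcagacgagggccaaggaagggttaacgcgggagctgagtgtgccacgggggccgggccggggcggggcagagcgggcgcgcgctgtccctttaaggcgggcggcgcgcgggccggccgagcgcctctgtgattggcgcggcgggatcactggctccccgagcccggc
Wnt11: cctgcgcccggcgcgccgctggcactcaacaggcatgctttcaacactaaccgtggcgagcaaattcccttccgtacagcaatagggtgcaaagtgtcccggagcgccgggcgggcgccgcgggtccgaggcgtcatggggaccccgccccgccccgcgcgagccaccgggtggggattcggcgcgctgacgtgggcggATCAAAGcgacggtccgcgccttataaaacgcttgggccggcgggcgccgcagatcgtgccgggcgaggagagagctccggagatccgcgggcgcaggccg
The Sp5 window held 2 TCF/LEF matches, the Wnt11 window held 1 and the Axin2 window held 0, and none of the 3 held a TEAD match. Another Wnt11 window, not shown, held 0 TCF/LEF matches. Among genes not shown, Dkk1 had 2 such matches, and Fzd7, Lef1, Tcf7l2 and Wnt5b had at least 1. The 3 windows were picked with the signals known, and a link between matches and ratios was not tested. The table had windows for 28 of the 45 genes, some with several start sites. A TCF/LEF match stood in at least 1 window of 7 of the 28 genes (25%), against 18.9% of all 27025 genes in the table. A gene with more windows has more room for a match. Counted by window, the shares were close, at 18.4% for these genes and 16.9% for all. For the TEAD core the count was 1 of 28 genes (3.57%), which was Wnt5b, against 16.6% of all genes. The median GC content was 67.0% in the 38 windows of these genes and 52.7% in all 32851 windows, which bears on how often any such short run occurs. A match is a run of letters, not a bound site.

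Wwtr1 itself followed the labels. Its probe sets read 11.3, 6.4 and 3.9 signal units in TAZ-deficient lung, against 791.2, 222.9 and 176.9 in wild type lung. Array medians were 15.1 in the TAZ-deficient and 15.2 in the wild type pool. A floor was set at 15.2 signal units, the median of all values of both arrays, and a gene was counted as measured when its representative probe set, the one with the highest mean log2 signal, exceeded the floor on either array. This held for 12040 genes, with a median log2 ratio of -0.01, and for 37 of the 44 Wnt pathway genes, all of them above the floor on both arrays. Fold changes below are TAZ-deficient over wild type, with values under the floor raised to it.

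No Wnt pathway gene reached a 1.5-fold difference at its representative probe set. The count was 0 of 37 higher in TAZ-deficient lung, where 1.27% of all measured genes were at least 1.5-fold higher, and 0 of 37 lower, where 1.48% of all measured genes were at least 1.5-fold lower. At those shares 37 genes would hold 0.47 and 0.55 genes, so that a count of 0 is near the background. Log2 ratios ran from -0.36 (Wif1) to 0.47 (Wnt5b), with a median of -0.05. Of the 37 ratios, 17 were positive, 19 were negative and 1 was 0. The median size of the difference was 1.10-fold, beside 1.08-fold over all measured genes.

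**Figure D1:**
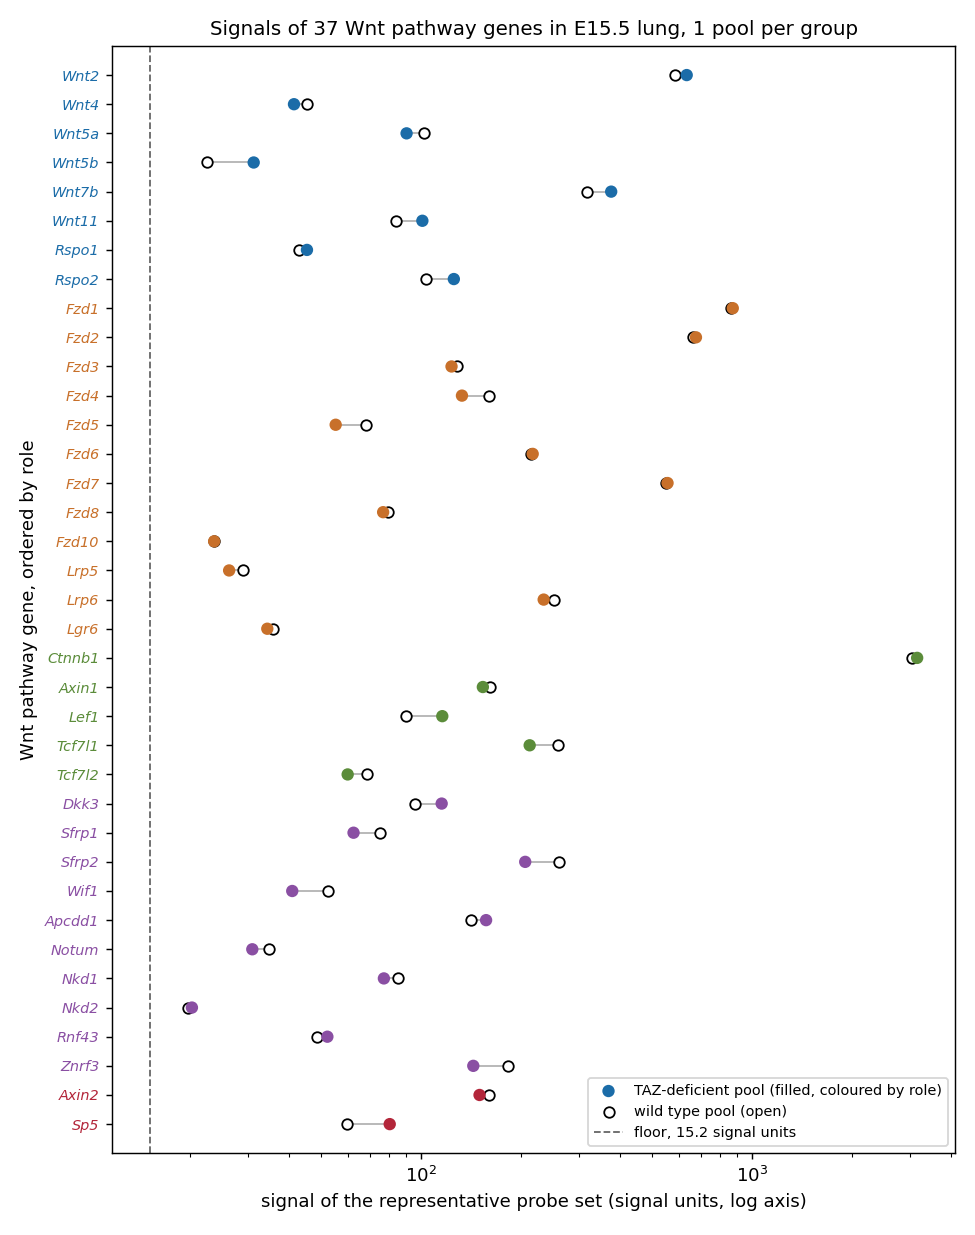
Signals of the representative probe set of 37 Wnt pathway genes on a log axis in signal units, filled circles for the TAZ-deficient pool and open circles for the wild type pool, 1 array each, with names coloured by role. The circles of most genes nearly touch, and the widest gaps are those of Wnt5b (31.2 and 22.5) and Sp5 (80.4 and 59.8); positions of different genes are not comparable, since each probe set has its own brightness.

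Smaller differences were counted at 1.2-fold, a limit added after it was seen that no gene reached 1.5-fold. By their representative probe sets 6 of 37 genes were at least 1.2-fold higher in TAZ-deficient lung (16.2%, against 8.02% of all measured genes) and 7 were at least 1.2-fold lower (18.9%, against 10.6%). The 6 were Wnt5b, Sp5, Lef1, Rspo2, Wnt11 and Dkk3, and the 7 were Wif1, Znrf3, Sfrp2, Fzd5, Tcf7l1, Fzd4 and Sfrp1. These counts depended on the setting. With a pseudocount of 16 in place of the floor they were 3 and 4 of 37, and under quantile normalization 6 and 4 of 37. A floor at the 75th percentile gave 0 and 4 of 19, and one at the 25th gave 8 and 9 of 44. The share of all measured genes at 1.2-fold under these settings is not given here, so these counts have no background beside them. Only 5 of the 13 genes had a second probe set above the floor on both arrays, and in 1 of these 5, Lef1, that probe set had the same sign. In none of the 5 was it also 1.2-fold different that way. Over all genes that were 1.2-fold different with such a second probe set (639), the sign was shared in 64.3% and the 1.2-fold difference itself in 25.5%.

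**Figure D2:**
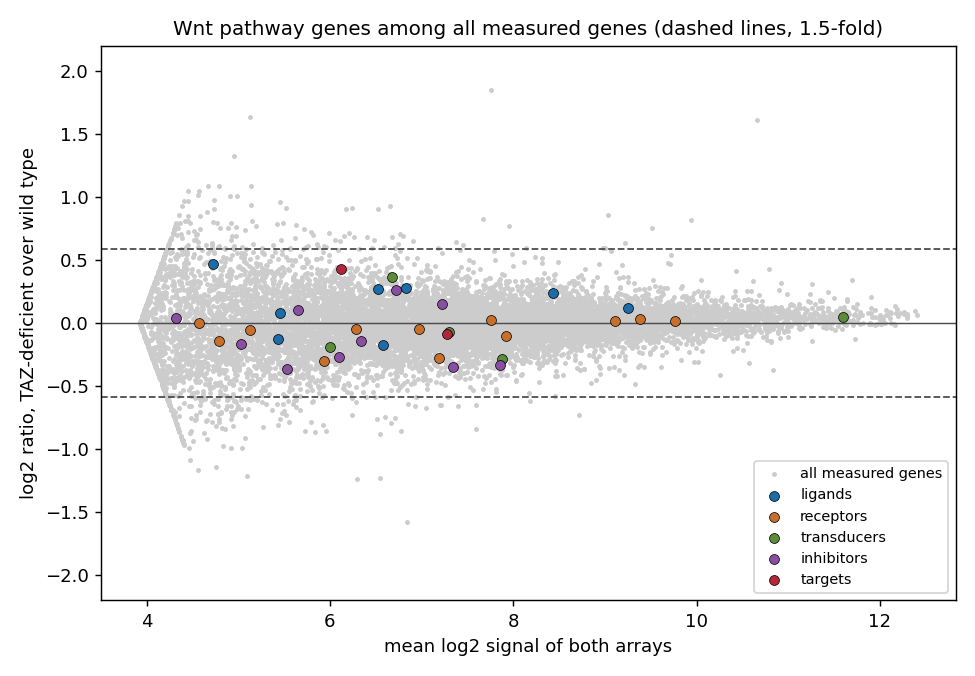
Log2 ratio (TAZ-deficient over wild type) against the mean log2 signal of both arrays, for 12040 measured genes (grey, 4 of them beyond the vertical axis) and the 37 Wnt pathway genes (coloured by role), with dashed lines at 1.5-fold. All 37 lie between the dashed lines, from -0.36 to 0.47, in a grey cloud that widens toward dim signals.

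Among the ligands, 8 of 11 genes were measured, with 6 positive and 2 negative log2 ratios and a median of 0.18. The median was 0.10 with the median over probe sets or without probe sets that can cross-hybridise, settings in which Wnt5b, 1 of the 6, was negative, and it was 0.08 with no filter on low signals. Wnt7b, the main epithelial ligand of the fetal lung, read 375.4 signal units in TAZ-deficient and 318.3 in wild type lung at one probe set (1.18-fold), and 148.6 against 129.6 at the other (log2 ratio 0.20). Its probe sets thus lay on the same side of 0 with nearly the same ratio. Wnt2, the mesenchymal ligand required for lung specification, read 634.9 in TAZ-deficient and 583.3 in wild type lung (1.09-fold) by its single probe set. Wnt11, a ligand that acts mostly outside the beta-catenin branch, read 100.9 in TAZ-deficient and 83.7 in wild type lung (1.21-fold), also by a single probe set.

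Wnt5a and Wnt5b, the closely related ligands of the non-canonical branch, had probe sets on both sides of 0. For Wnt5a the TAZ-deficient pool read 90.4, 43.6 and 21.0, against 101.9, 39.1 and 29.2 in the wild type pool, giving log2 ratios of -0.17, 0.16 and -0.48. For Wnt5b one probe set read 31.2 in TAZ-deficient and 22.5 in wild type lung (1.39-fold, log2 ratio 0.47), while the other read 15 against 22.5 (log2 ratio -0.57 with the first value raised to the floor). The first of these carries the suffix of a probe set that can cross-hybridise, and without such probe sets the ratio of Wnt5b was negative. Wnt4, a ligand with roles in organ outgrowth, read 41.3 in TAZ-deficient and 45.2 in wild type lung, and 13 against 18 at its second probe set.

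R-spondins were read by few probe sets. Rspo2, an R-spondin of the lung mesenchyme needed for branching, read 125.6 in TAZ-deficient and 103.7 in wild type lung (1.21-fold), its other probe set being under the floor on both arrays. Rspo1 read 45.2 against 42.7. Rspo3 was not above the floor, with 11.7 and 5.5 in TAZ-deficient and 11 and 2.7 in wild type lung. Likewise Wnt2b (10.4 in TAZ-deficient and 3.1 in wild type lung) and Wnt3a (4.7 and 3.1) stayed under it, so no ratio is given for these ligands.

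Receptors had the smallest spread of ratios among the larger roles. Of 14 listed, 12 were measured, with log2 ratios from -0.30 to 0.03 and a median of -0.05, which ran from -0.11 to 0.01 over the alternatives. The Frizzleds, membrane receptors that bind Wnt through a cysteine-rich domain, made up 9 of the 12. Fzd1 read 874.8 in TAZ-deficient and 863.1 in wild type lung, and 200.7 against 199.3 at its other probe set. Fzd2 read 677.1, 625.3 and 431.1 in TAZ-deficient lung, against 661.3, 620.7 and 370.0 in wild type lung. At their representative probe sets Fzd1 had a log2 ratio of 0.02 and Fzd2 one of 0.03, and the sign of Fzd1 was negative under quantile normalization and loess.

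Fzd7 read 555.6 in TAZ-deficient and 550.4 in wild type lung, but 39.8 against 51.2 at its dimmer probe set (log2 ratio -0.36). Fzd6, tied to planar polarity, showed the same split with 217.4 against 214.2 and 41.2 against 54.0 (log2 ratio -0.39). In both genes the dimmer probe set was the one that differed. Fzd3, another polarity receptor, read 123.6, 45.2, 46.7 and 17.7 in TAZ-deficient lung, against 128.0, 46.9, 42.5 and 25.2 in wild type lung, the last being the only one with a log2 ratio beyond 0.2 in size (-0.51). Fzd8 read 76.8 in TAZ-deficient and 79.4 in wild type lung, and 14.2 against 20.6 at a probe set near the floor. Fzd10 read 23.7 in each pool.

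Fzd4 and Fzd5 had the lowest representative ratios of the Frizzleds. Fzd4, a receptor of endothelium that also binds norrin, read 132.9 in TAZ-deficient and 160.8 in wild type lung (log2 ratio -0.27), but 130.3 against 127.3 and 36.1 against 33.3 at its other probe sets, so that the median over its probe sets was 0.03. Fzd5 read 55.2 in TAZ-deficient and 68.0 in wild type lung (1.23-fold lower), and its other probe set was not above the floor. Fzd9 was not above the floor (5.5 in TAZ-deficient and 2.2 in wild type lung).

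The coreceptor Lrp6, which passes the canonical signal to Axin, read 234.7 and 55.6 in TAZ-deficient lung, against 251.3 and 57.6 in wild type lung. Its relative Lrp5 read 26.3 against 29.0. Among the R-spondin receptors, Lgr6 read 34.3 and 23.6 in TAZ-deficient lung, against 35.6 and 31.9 in wild type lung, and Lgr5, known as a stem cell marker of the intestine, was not above the floor at either probe set (7.7 and 7.2 in TAZ-deficient, 1.2 and 9.7 in wild type lung). None of these 3 measured genes, Lrp5, Lrp6 and Lgr6, differed by 1.2-fold at the representative probe set. The dimmer probe set of Lgr6 had a log2 ratio of -0.43.

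**Figure D3:**
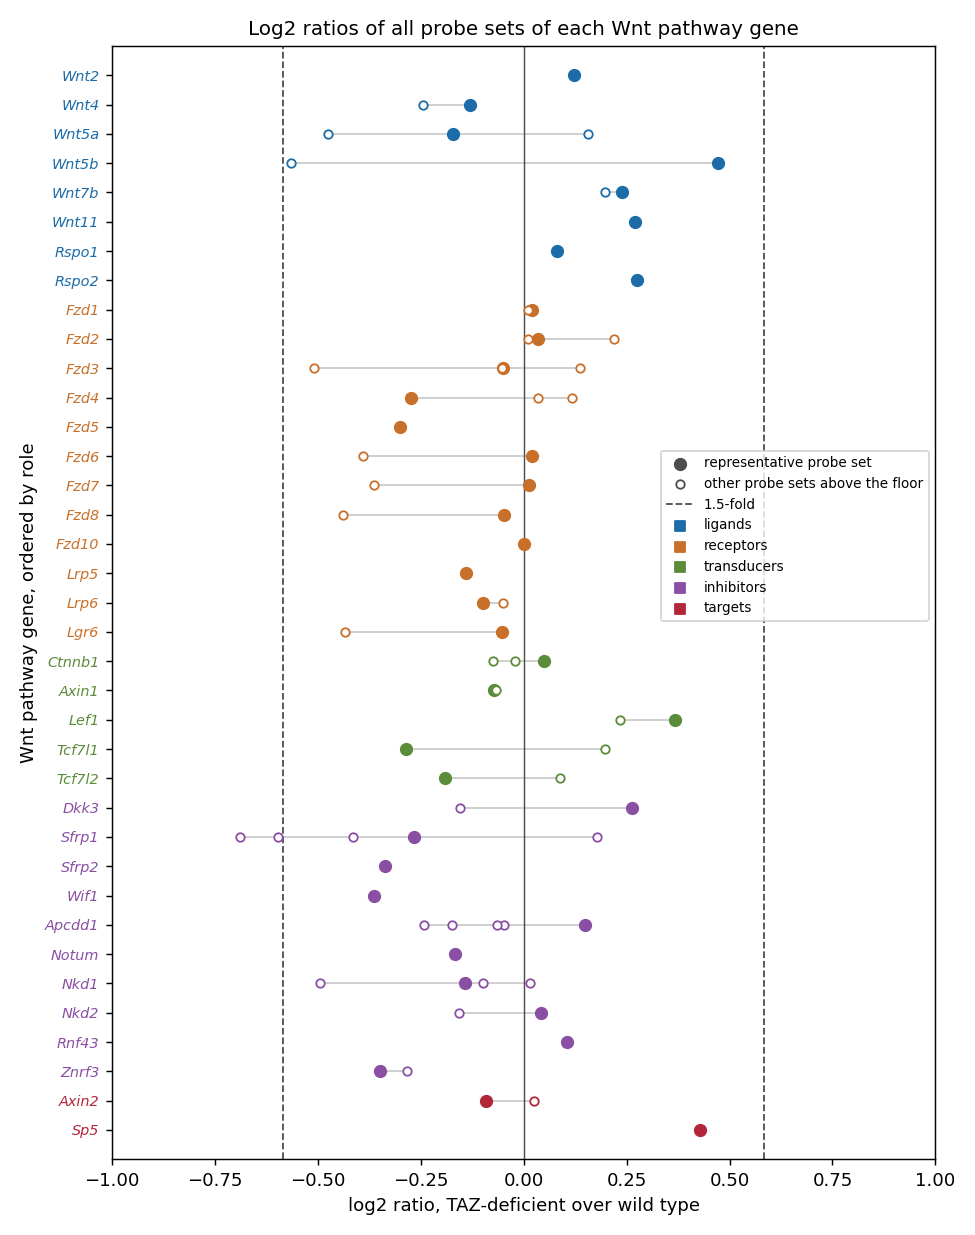
Log2 ratios (TAZ-deficient over wild type) for the 76 probe sets above the floor on either array, 1 row per gene ordered and coloured by role, filled for the representative probe set and open for the others, with dashed lines at 1.5-fold. Only 2 points, both of Sfrp1 and on the lower side (-0.69 and -0.60), lie beyond the dashed lines, and the points of many genes fall on both sides of 0.

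Ctnnb1, the gene of beta-catenin, was close to equal in the pools at all its probe sets. They read 3156.0, 1723.6 and 797.9 in TAZ-deficient lung, against 3051.7, 1749.2 and 840.4 in wild type lung, with log2 ratios of 0.05, -0.02 and -0.07. Axin1, the scaffold of the destruction complex, read 153.7 and 57.2 in TAZ-deficient lung, against 161.6 and 59.9 in wild type lung, with log2 ratios of -0.07 at both. Array signals are transcript levels and say nothing of the amount or location of beta-catenin protein.

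Of the nuclear factors, Lef1, which is both a partner of beta-catenin and its target gene, read 115.9 in TAZ-deficient and 89.8 in wild type lung (1.29-fold) at one probe set and 51.5 against 43.8 at the other. The log2 ratios of 0.37 and 0.23 had the same sign, and the representative one stayed positive under all 9 alternatives. Where the probe sets share a sign, only quantile normalization, median centring and loess could have turned it. Tcf7l1, a TCF that mostly represses, gave opposite readings, with 212.9 in TAZ-deficient and 259.6 in wild type lung at one probe set and 243.3 against 212.1 at the other (log2 ratios -0.29 and 0.20). Tcf7l2 likewise read 60.0 against 68.5 and 35.4 against 33.3 at the probe sets above the floor. The 5 measured transducers had a median log2 ratio of -0.07, running from -0.29 to 0.37.

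Inhibitors had a median log2 ratio of -0.15, with 4 positive and 6 negative ratios among 10 measured of 12 listed. The median ran from -0.15 to -0.07 over the alternatives, and was -0.07 with no filter on low signals, where the transducer median was -0.07 too. Sfrp1, a secreted Frizzled-related protein that binds Wnt, was the only member with probe sets past 1.5-fold. Its 5 probe sets read 62.5, 68.9, 37.7, 28.6 and 19.8 signal units in TAZ-deficient lung, against 75.2, 60.9, 57.0, 46.1 and 26.4 in wild type lung. Thus 4 of the 5 were lower in TAZ-deficient lung, with log2 ratios of -0.27, -0.60, -0.69 and -0.42, and the remaining one was higher, at 0.18. The median over the 5 was 1.33-fold lower.

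Over all Wnt pathway probe sets above the floor, these 2 of Sfrp1 made up 2 of 76 past 1.5-fold in either direction (2.63%), against 3.40% of all 21294 single-gene probe sets above the floor. At that share 76 probe sets would hold 2.59. The count was 1 under quantile normalization, loess or median centring, 0 with a pseudocount of 16 or a floor at the 75th percentile, and 10 with a floor at the 25th. The floor also changes how many probe sets are counted. The share of all probe sets under these settings is not given here, so these counts have no background beside them.

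Sfrp2, a second secreted Frizzled-related protein, read 206.4 in TAZ-deficient and 260.6 in wild type lung (1.26-fold lower) by its single probe set. Wif1, a secreted protein that binds Wnt ligands directly, read 40.8 in TAZ-deficient and 52.5 in wild type lung (1.29-fold lower), also by a single one. Their ratios were negative under every one of the 9 alternatives that measured them. For a single probe set only quantile normalization, median centring and loess could have turned the sign, so this adds little. No other probe set was at hand to compare. Dkk3, a divergent member of the Dickkopf family, read 115.4 in TAZ-deficient and 96.1 in wild type lung at one probe set, and 81.7 against 90.9 at the other. Dkk1 and Dkk2, which block Lrp5 and Lrp6, were not above the floor, Dkk1 reading 9.2 and 4.0 in TAZ-deficient and 9.0 and 2.7 in wild type lung, and Dkk2 reading 4.3 in TAZ-deficient and 10.7 in wild type lung.

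Several inhibitors are themselves induced by the pathway and feed back on it. Znrf3, the ubiquitin ligase that clears Frizzled, read 143.8 in TAZ-deficient and 183.0 in wild type lung (1.27-fold lower), and 10.7 against 18.5 at a probe set near the floor. Its partner Rnf43 read 52.1 against 48.4, on the other side of equality. Apcdd1, a membrane inhibitor of Wnt reception, read 157.2, 118.7, 83.8, 85.2 and 25.7 in TAZ-deficient lung, against 141.7, 140.3, 94.6, 88.1 and 26.9 in wild type lung, so that 1 of 5 ratios was positive and 4 were negative. The positive one is the representative, a probe set that can cross-hybridise, and the ratio of Apcdd1 was -0.05 without such probe sets and -0.07 with the median over probe sets.

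Nkd1, a cytoplasmic binder of Dishevelled, read 77.2, 69.8, 23.0 and 22.4 in TAZ-deficient lung, against 85.2, 69.1, 32.4 and 24.0 in wild type lung. Nkd2 read 20.3 and 17.3 in TAZ-deficient lung, against 19.7 and 19.3 in wild type lung. Notum, a secreted enzyme that removes the lipid from Wnt, read 30.9 against 34.7. The differences of these feedback genes were under 1.2-fold at the representative probe set. The Nkd1 probe set that read 23.0 against 32.4 had a log2 ratio of -0.49.

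Axin2 and Sp5 were taken as readouts of canonical signalling. Axin2 read 150.2 in TAZ-deficient and 159.9 in wild type lung at one probe set and 39.7 against 39.0 at the other, log2 ratios of -0.09 and 0.03. Sp5, a zinc finger target gene, read 80.4 in TAZ-deficient and 59.8 in wild type lung (1.34-fold) by its single probe set. The ratio of Sp5 was positive under every alternative that measured it, but few of these could have turned the sign of a single probe set. A floor at the 75th percentile lay above both signals and left the gene out.

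Together with Lef1, Znrf3, Rnf43, Apcdd1, Nkd1 and Notum, the known targets made up 8 measured of 11 listed. Their log2 ratios were positive for 4, among them Apcdd1 with its change of sign described above, and negative for 4. The median was 0.01 and ran from -0.07 to 0.03 over the alternatives. Of the 8, 2 were at least 1.2-fold higher (Sp5 and Lef1), against 8.02% of all measured genes. Znrf3 alone was at least 1.2-fold lower, against 10.6% of all measured genes. Counts in 8 genes are too small to set apart from these shares. The list as a whole thus had no common side, and Dkk1, Lgr5 and Tcf7 gave no ratio.

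Error could be judged here only from how far probe sets of the same gene disagreed. In 5201 genes 2 or more probe sets exceeded the floor on both arrays. The difference between the log2 ratios of the 2 brightest had an SD that came to 0.19 per probe set (1.14-fold), after division by the square root of 2. For the 21 Wnt pathway genes of this kind the value was 0.20. The 2 probe sets had the same sign in 8 of these 21 genes (38.1%), against 58.1% of all such genes. All probe sets above the floor on both arrays had the same sign in 7 of the 21, which were Wnt7b, Fzd1, Fzd2, Lrp6, Lgr6, Axin1 and Lef1. Spread between embryos, pools or arrays is not part of it.

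**Figure D4:**
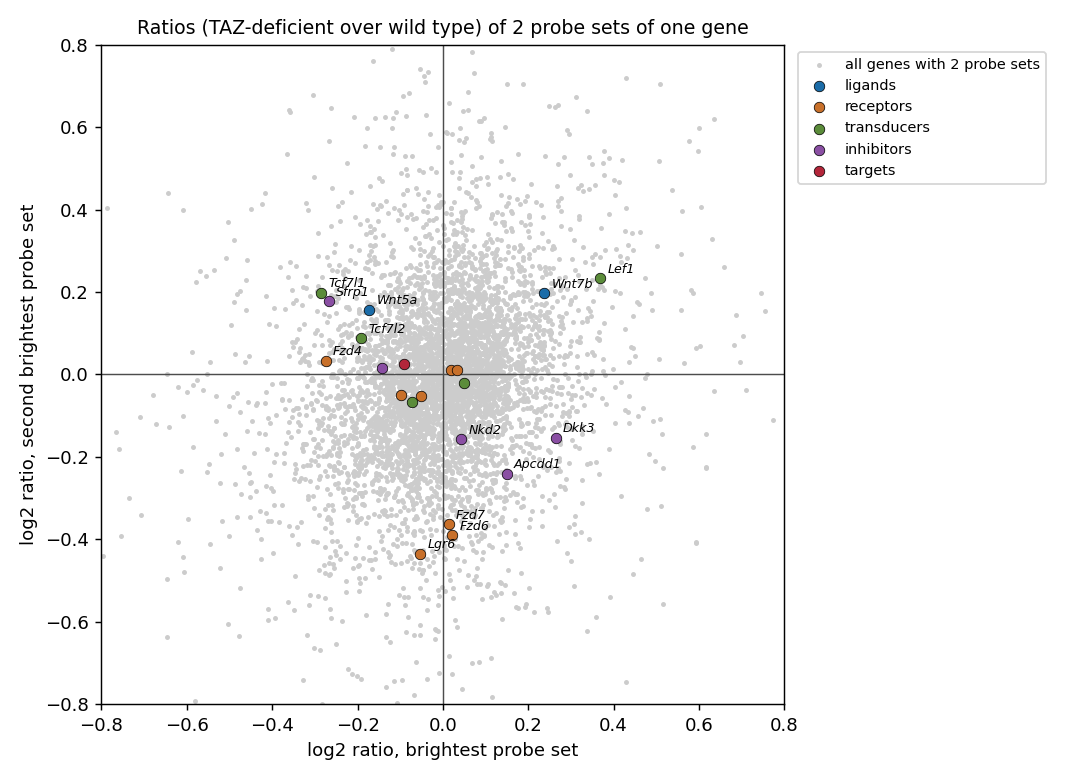
Log2 ratio (TAZ-deficient over wild type) at the brightest probe set of a gene against that at the second brightest, for 5201 genes (grey, 56 of them beyond the axes) and 21 Wnt pathway genes (coloured by role, named where either value exceeds 0.15 in size). Lef1 (0.37 and 0.23) and Wnt7b (0.24 and 0.20) lie in the upper right, whereas Tcf7l1, Sfrp1 and Wnt5a lie in the upper left, with signs that differ.

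Of the other genes of the pathway, 61 were listed by function, 60 had a single-gene probe set and 45 were measured. By their representative probe sets, 0 of these 45 were at least 1.5-fold higher and 1 was at least 1.5-fold lower. The shares over all measured genes were 1.27% and 1.48%, and the median log2 ratio of the 45 was 0.04. The 1 lower gene was Kremen1, a receptor for Dickkopf proteins that removes Lrp6 from the cell surface. Kremen1 read 80.5 in TAZ-deficient and 135.7 in wild type lung (1.69-fold lower) at one probe set, 26.9 against 35.3 (1.31-fold lower) at another, and was not above the floor at the third. The median over its probe sets was just under 1.5-fold, at -0.57 on the log2 scale, and the ratio was -0.35 with a floor at the 75th percentile.

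Lgr4, the R-spondin receptor related to Lgr6, read 81.6 in TAZ-deficient and 109.3 in wild type lung (1.34-fold lower). Porcn, the enzyme that attaches the lipid to Wnt, read 26.8 against 36.7 (1.37-fold lower), while Wls, which carries Wnt to the cell surface, read 696.3 against 657.3. The ligands Wnt6 and Wnt7a read 22.1 and 30.0 in TAZ-deficient lung, against 25.6 and 33.5 in wild type lung, and the secreted inhibitor Sfrp4 read 25 against 31.2. All these differences were under 1.5-fold.

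In the Dishevelled and destruction complex list, 15 of 16 genes were measured with a median of 0.04. Dvl2, a Dishevelled that relays the Frizzled signal, read 137.3 and 52.0 in TAZ-deficient lung, against 111.5 and 49.2 in wild type lung, and the kinase Gsk3a read 339.3 against 279.7 (1.21-fold). Apc2, a relative of the scaffold Apc named here after its values were seen, was above the floor on 1 array only, with 20.7 in TAZ-deficient and 4.9 in wild type lung, at least 1.36-fold higher. Its other 3 probe sets were not above the floor on either array, and it passed 1.5-fold with a pseudocount of 16. In this list 3 genes passed 1.5-fold only at a probe set other than the representative. There Amer1 read 42.7 in TAZ-deficient and 73.4 in wild type lung (log2 ratio -0.78). Csnk1e read 15.8, close to the floor, against 31.2 (-0.98), and Csnk1d read 525.1 against 349.7 (0.59). Their representative log2 ratios were 0.11, -0.16 and 0.01. The 14 nuclear cofactors, all measured, had a median of 0.10. Tbl1xr1, a corepressor exchange factor, had the largest ratio of that list at 1.26-fold (292.5 in TAZ-deficient and 231.5 in wild type lung), though its probe sets above the floor fell on both sides of 0. Bcl9l, a cofactor that links beta-catenin to Pygopus proteins, read 82.9 against 68.7.

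Cell type markers were read on the same arrays. All 9 epithelial and all 8 lung mesenchyme markers were measured, among them Sftpc and Nkx2-1, with summed signals of 10167.1 and 9880.5 in TAZ-deficient lung, against 9837.8 and 9852.9 in wild type lung. A sum is carried mostly by its brightest probe sets. The median log2 ratios were 0.05 for epithelium and -0.02 for mesenchyme. Single ratios ran from -0.025 to 0.24 in epithelium and from -0.33 (Tbx5) to 0.04 in mesenchyme. All 5 smooth muscle markers had negative log2 ratios (sum 3605.0 in TAZ-deficient and 3890.2 in wild type lung, median -0.36), 1 of them (Cnn1) being 1.5-fold lower. The 3 measured of 6 heart muscle markers, Myl7, Myh7 and Tnnt2, were each at least 1.5-fold lower, with a median log2 ratio of -0.69. They read 46.2, 15.4 and 20.1 in TAZ-deficient lung, against 83.6, 24.9 and 30.6 in wild type lung. Myh7 was thus barely above the floor in TAZ-deficient lung, and Tnnt2 was only 1.52-fold lower. Of all measured genes, 1.48% were at least 1.5-fold lower. Myh6, Nppa and Actn2 were not above the floor. The sum over the 6 genes, 104.2 in TAZ-deficient and 166 in wild type lung, includes them. Of 5 leukocyte markers 4 were negative (sum 411.2 in TAZ-deficient and 514.8 in wild type lung). Mesothelial markers summed to 757.3 in TAZ-deficient and 764.9 in wild type lung and endothelial markers to 1500.3 in TAZ-deficient and 1551.9 in wild type lung, while 1 gene each of the thymus, liver, and oesophagus and thyroid lists was measured. Their part in the values of Sfrp1, Kremen1 and the other genes above was not tested.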

How the data were processed

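Total RNA of whole lung was labelled with biotin after priming on the poly(A) tail and hybridised to 2 arrays, per the labels' protocols. The deposited intensity is a linear value for each probe set of an array. Per the submitters' processing notes, GCOS and MAS5 were used; no version is given there. Both arrays had a mean of 100.001 once the lowest and highest 2% of values were removed, so each had been scaled as a whole. No detection call was used. The genome build of the probe design is not given in the sources used here.

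Of 45101 probe sets, 64 were controls. The platform annotation named 1 gene for 34945 and several for 932, and 9160 had no entry. Symbols were updated through the Entrez identifier for 34741. Values below the floor of 15.2, the median of all non-control values, were raised to it before the log2 ratio was taken, so that a ratio with 1 signal under the floor is a bound. The representative probe set of a gene had its highest mean log2 signal. Genes were counted at 1.5-fold, with no test, since each group was 1 pool on 1 array. Promoter windows came from RefSeq, GRCm38.p6. Python 3.11.15, pandas 2.3.3, numpy 2.4.6 and statsmodels 0.14.6 (loess, with a span of 0.3) were used, and the counting was tested on simulated data.

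Every listed gene was named, with all probe sets where one passed 1.5-fold and with both signals of the representative probe set otherwise; signals of further probe sets were added for comparison. Of the other pathway genes, those past 1.5-fold at the representative probe set were named. So were the 2 largest ratios per list among genes above the floor on both arrays. Apc2, and Amer1, Csnk1e and Csnk1d with another probe set past 1.5-fold, were added after their values were seen. The genes, roles, lists and thresholds were chosen with earlier results of these data known. The alternatives were floors at the 25th and 75th percentile (4.3 and 106.3), no filter, a pseudocount of 16, quantile normalization, median centring, loess, the median over probe sets, and leaving out probe sets ending in _s_at or _x_at.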

Additional observations from a re-analysis of the deposited data

How the results depend on the processing

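Under 9 alternatives the count of Wnt pathway genes at least 1.5-fold different stayed at 0 higher and 0 lower, except for a floor at the 25th percentile, which gave 1 higher (Wnt2b) and 1 lower (Dkk2), beside 5.27% and 7.26% of all genes measured there. Both genes were under the floor of 15.2 on both arrays. The count of probe sets past 1.5-fold, 2 in the report, was 10 for the lower floor, 0 for a floor at the 75th percentile or a pseudocount of 16, and 1 under quantile normalization, median centring or loess. The lower floor keeps more dim probe sets, and the higher floor and the pseudocount compress dim ratios by construction. These probe set counts have no share over all probe sets beside them. The number of genes whose 2 brightest probe sets shared a sign, 8 of 21 in the report, was 12 of 27 for the lower floor and 3 of 7 for the higher one. In the other pathway genes, 0 higher and 1 lower of 45 became 2 and 5 of 56 for the lower floor, beside the same 5.27% and 7.26% of all genes. The counts were 0 and 0 for the higher floor, with 33 genes measured, and with the median over probe sets. They were 1 and 1 with the pseudocount (Apc2 higher) or without probe sets that may be shared between transcripts (Csnk1d higher). Without its brightest probe set, a shared one with a log2 ratio of 0.01, Csnk1d is represented by the next, which read 525.1 in TAZ-deficient and 349.7 in wild type lung (log2 ratio 0.59). The median log2 ratio of the listed genes ran from -0.05 to 0.02.

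Of 315 ratios of single genes under the alternatives, 304 moved by less than the probe set SD of 0.19 over all genes, and 11 moved by more. Many of the 315 could not move much by construction. The lower floor and no filter left the ratios of measured genes as they were, and median centring shifted all by the same small amount. A gene with 1 probe set has no other to change its ratio. The count of 304 is thus no measure of how firm the ratios are. The sign turned in 14 of 315, in 8 genes (Wnt5b, Fzd1, Fzd4, Fzd6, Fzd7, Ctnnb1, Apcdd1 and Nkd2), and for Wnt5b it was negative, at -0.57, without shared probe sets. No paired analysis was possible because each group was 1 pool on 1 array. Low signal over background leaves 7 genes without a ratio. With 1 array per group, neither a difference nor its absence is told from the variation between pools.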
